A study of Mus musculus with 20 samples.

Results

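The miR-506 superfamily of the mouse testis and epididymis was followed in small RNA of cauda epididymosomes, which are vesicles collected from the fluid of the epididymal tail. Members were all mature miRNA entries whose name carries one of 20 numbers of the X-linked clusters (miR-201, miR-463, miR-465a, miR-465b, miR-465c, miR-465d, miR-470, miR-471, miR-509, miR-547, miR-741, miR-742, miR-743a, miR-743b, miR-871, miR-878, miR-880, miR-881, miR-883a and miR-883b), on either arm. This gave 32 members in each of 2 count tables, among 948 and 875 mature miRNA entries and 72034 and 59035 features in all. The members were the same in both tables, 16 from 5p and 16 from 3p arms, and 19 of the 20 numbers had an entry. One entry joins the identical 3p sequences of miR-465a, b and c and was counted once.

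Vesicles came from males of 9 months, 5 from litters left untouched (Control 3, 5, 7, 9 and 11) and 5 from litters exposed after birth to MSUS, unpredictable maternal separation with daily separation of 3 h over 2 weeks, combined with forced swim or restraint of the dams at unpredictable times (MSUS 2, 4, 6, 8 and 14). The labels used here name neither the strain nor the litter of an animal, so that a p-value speaks for the spread among these males and not among litters. Each library was read in 2 runs, labelled with and without a size selection for miRNAs, and each run has its table. In the table whose label says size-selected, miRNAs held only 10.9 to 17.0% of counts per library, while they held 52.4 to 72.2% in the table whose label says that no size was selected. The tables are called the with-selection and the without-selection table by their labels only. Total counts per library ranged from 1872084 to 3647956 and from 215231 to 871461, and counts on miRNAs from 234151 to 550403 and from 132141 to 575388.

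A miRNA is cut from a hairpin precursor first by the nuclear enzyme Drosha with its partner Dgcr8 and then by Dicer1, and either arm of the hairpin can be loaded into an Argonaute protein. The loaded strand finds target mRNAs mainly through its seed, the bases next to its 5′ end. The miR-506 superfamily is a fast-evolving group of X-linked miRNAs expressed preferentially in the male germ line, and members have also been described in the epididymis. Epididymosomes are shed by epididymal epithelium and carry RNA and protein to maturing sperm.

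The mature sequences that bear on the results are those of the 8 members described library by library and of members that share a seed with another. All 32 members matched RefSeq miRNA records on GRCm38.p6. The sequences run 5′ to 3′ and capitals mark the seed, bases 2 to 8.
miR-881-3p: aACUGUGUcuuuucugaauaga
miR-465c-5p: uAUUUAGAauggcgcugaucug
miR-465b-5p: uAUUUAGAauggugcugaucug
miR-465a-5p: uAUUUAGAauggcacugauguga
miR-465d-5p: uAUUUAGAaugguacugauguga
miR-465a/b/c-3p: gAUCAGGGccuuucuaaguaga
miR-883a-3p: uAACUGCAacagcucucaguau
miR-883b-3p: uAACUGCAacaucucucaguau
miR-743a-3p: gAAAGACAccaagcugaguaga
miR-743b-3p: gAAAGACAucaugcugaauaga
miR-743a-5p: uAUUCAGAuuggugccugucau
miR-871-5p: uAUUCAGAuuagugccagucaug
miR-878-5p: uAUCUAGUuggaugucaagaca
miR-470-5p: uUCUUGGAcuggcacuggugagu

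The members carried 26 distinct seeds. A seed was shared among members in 4 cases, which took in 10 of them: miR-465a, b, c and d on the 5p arm, miR-743a-3p with miR-743b-3p, miR-883a-3p with miR-883b-3p, and miR-743a-5p with miR-871-5p. Of all 26 seeds, 1 was found in a mature miRNA outside the superfamily among 1679 names in the RefSeq table, that of miR-743b-5p. Within the shared seeds the copies differed downstream of the seed, with positions counted from 1 at the 5′ end. miR-465b-5p and miR-465c-5p differed by U13C, miR-883a-3p and miR-883b-3p by G12U, and miR-743a-3p and miR-743b-3p by C9U, A12U and G18A. miR-743a-5p and miR-871-5p, from different hairpins, differed by G11A and U17A over 22 bases.

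The 22 hairpins of the superfamily in RefSeq all lay on the minus strand of chromosome X, and none overlapped another annotated gene. The larger cluster held 19 hairpins from position 66776757 to 66839125 (62.4 kb, GRCm38). The other 3, Mir201, Mir547 and Mir509, lay 1149 kb further on, from 67988096 to 68010179. The 6 Mir465 hairpins followed each other at steps of 3.25 to 3.31 kb at one end of the larger cluster. Mir881 was at 66801944 to 66802021 and Mir878 at 66801508 to 66801585, next to each other near its middle. The nearest protein-coding genes in the list of neighbours were Slitrk2, 115 kb before the larger cluster, and Fmr1, 668 kb after the smaller.

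The superfamily made up about 1% of the miRNA counts in the vesicles. Its summed share in the with-selection table was 1.10, 0.974, 0.989, 0.726 and 1.08% in Control 3, 5, 7, 9 and 11 and 1.18, 1.33, 1.10, 1.17 and 0.968% in MSUS 2, 4, 6, 8 and 14. In the without-selection table the same animals stood at 1.01, 0.789, 0.848, 0.667 and 1.01% and at 1.13, 1.19, 0.978, 1.03 and 0.889%. Control 9 was lowest and MSUS 4 highest in both tables, and the groups overlapped in both. The group means were 0.974 ± 0.149% in Control and 1.15 ± 0.132% in MSUS libraries (SD, n = 5 each), and 0.865 ± 0.148% and 1.04 ± 0.120% in the other table. In bulk vesicle RNA, fewer vesicles of one source cannot be told apart from less of a miRNA per vesicle.

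Of the 32 members, 19 passed the filter on low counts in each table (10 from 5p and 9 from 3p arms), and these held 99.0 and 98.9% of the superfamily's counts. The other 13 had at most 85.0 and 71.0 counts over all 10 libraries. They were both arms of miR-741 and miR-742, miR-463-3p, miR-470-3p, miR-547-3p, miR-880-3p, miR-201-5p, the 5p arms of miR-883a and miR-883b, and both arms of miR-465d. miR-547-3p, from the smaller cluster, had 39.0 counts over the with-selection table and 33.0 over the other, and miR-201-5p averaged 2.85 and 3.35 CPM. Between 26 and 31 members had a count above 0 in each library of that table, and between 24 and 31 in the other.

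Abundance was concentrated in few members. CPM here are counts per 1000000 of the TMM-scaled miRNA total, and the mature sequences are all 21 to 23 bases long. Levels of different members and arms are compared as counts only. How well each sequence was captured in a library was not tested. miR-881-3p was the most abundant member at 3249 and 2467 CPM on average, rank 35 of 948 and 42 of 875 miRNAs. miR-465c-5p followed at 1299 and 1121 CPM, miR-465b-5p at 1027 and 790 CPM, miR-883a-3p at 932 and 1109 CPM, and the joined miR-465a/b/c-3p at 908 and 852 CPM. The spread over the 10 libraries (SD) was 1157 CPM for miR-881-3p and 126 to 246 CPM for these 4 in the with-selection table. miR-465c-5p stood above miR-465b-5p in each of the 10 libraries (ratio 1.12 to 1.47), whereas the order of miR-465b-5p, miR-883a-3p and miR-465a/b/c-3p there changed from library to library. The 6 most abundant members held 74.2 and 71.7% of superfamily counts. miR-743b-3p, miR-743a-3p, miR-470-5p and miR-471-5p lay between 303 and 583 CPM in both tables, and the remaining tested members between 45.9 and 257 CPM.

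**Figure D1:**
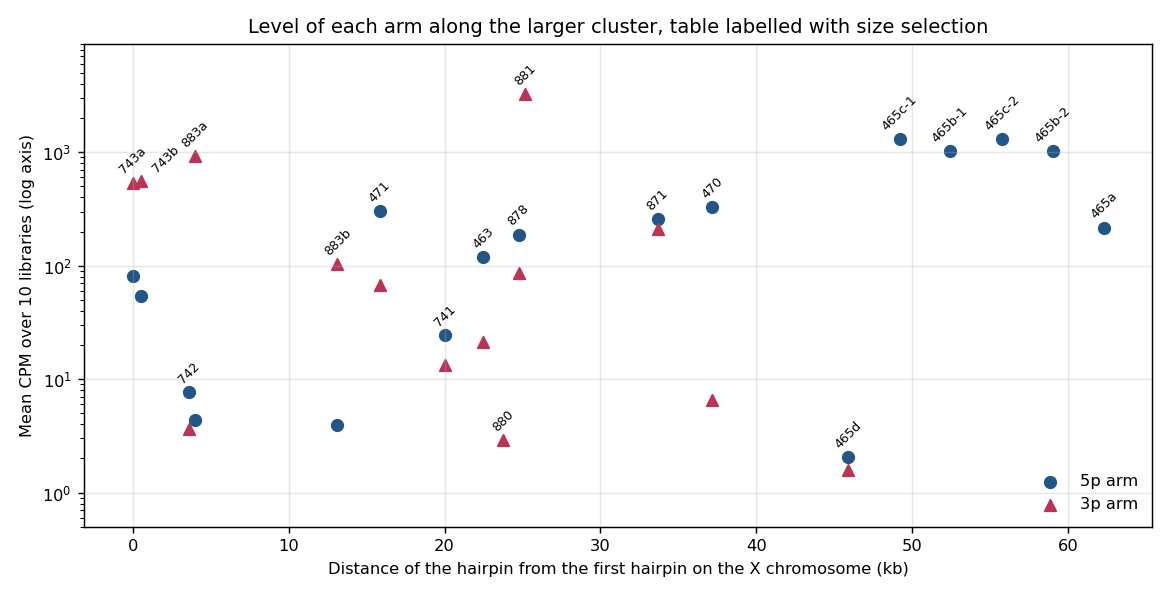
Mean CPM over the 10 libraries of the with-selection table (log axis) for each arm against the distance of its hairpin from the first hairpin of the larger cluster, in kb; circles are 5p arms and triangles 3p arms. miR-881-3p stands highest at 3249 CPM; the joined miR-465a/b/c-3p entry comes from several hairpins and is not drawn, and the miR-465b and c levels appear at both of their hairpins.

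Neighbouring hairpins differed widely in level. miR-880-3p, whose hairpin lies beside those of miR-878 and miR-881, averaged 2.90 CPM in the with-selection table, against 188 CPM for miR-878-5p and 3249 CPM for miR-881-3p. At the miR-465 end, miR-465d-5p averaged 2.05 CPM beside 1299 CPM for miR-465c-5p. Within the miR-465 5p group, the c copy held 51.0 ± 1.39%, the b copy 40.4 ± 2.07% and the a copy 8.54 ± 1.28% of counts (SD over 10 libraries). The without-selection table gave 54.0 ± 2.91%, 38.0 ± 2.66% and 7.94 ± 1.54%. The c and b copies each have 2 hairpins in the genome and differ by the single substitution above, so that the split between them can depend on how the authors assigned reads to near-identical copies. miR-883a-3p stood 9.33 ± 2.07 times above miR-883b-3p, while miR-743a-3p and miR-743b-3p were near parity with a ratio of 0.972 ± 0.123 (9.01 ± 1.85 and 1.07 ± 0.206 without selection).

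The dominant arm differed from hairpin to hairpin. It was the 5p arm in 10 of 10 libraries of both tables for miR-465, miR-471 and miR-878, and the 3p arm in all libraries for miR-743a and miR-743b. The log2 ratio of 5p to 3p counts in the with-selection table averaged 2.31 ± 0.66 in Control and 2.04 ± 0.73 in MSUS libraries for miR-471 (SD, n = 5 each), and −3.35 ± 0.27 and −3.36 ± 0.41 for miR-743b. miR-871 was close to balance, with the 5p arm higher in 8 of 10 libraries of the with-selection table and in 2 of 10 of the other. Arm ratios were compared between MSUS and Control with a two-sided exact permutation test, which cannot go below 0.00794 with 5 against 5 animals, for 52 and 46 hairpins with both arms measured. An adjusted p under 0.05 would need at least 9 and 8 hairpins at that smallest p, so that a single hairpin could not be called. None of the 6 superfamily hairpins was called, nor was any other hairpin (0%), and at an unadjusted p under 0.05 there were 0 hairpins in the with-selection and 5 in the without-selection table, with 0 of the 6 superfamily hairpins in either. The largest superfamily difference was for miR-878 in the without-selection table, with 0.80 ± 0.67 in Control and 1.42 ± 0.60 in MSUS (difference 0.62, exact permutation p = 0.175, adjusted p = 0.669). miR-743b followed in the same table with a difference of 0.61 (exact permutation p = 0.103, adjusted p = 0.593).

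The comparison of MSUS with Control asks whether stress in early life goes with another miRNA cargo in adulthood. No member passed the edgeR quasi-likelihood test with Benjamini-Hochberg adjustment over all miRNAs in either table, where 0 of 259 and 0 of 233 miRNAs passed (0%). DESeq2 and limma voom called 0 members as well. At an unadjusted p under 0.05 there was 1 member in the with-selection table and there were 2 in the other, all higher in MSUS, where the share of all miRNAs higher at that p was 1.16 and 1.72%. The log2 fold change (MSUS minus Control) was above 0 for 17 of 19 members with a median of +0.11 in the with-selection table, against 54.8% of all miRNAs and a median of +0.03. In the without-selection table it was above 0 for 19 of 19 members with a median of +0.25, against 50.2% and 0.00. Both tables come from the same libraries, so that the second count is not independent of the first. No member had groups that did not overlap, against 0.386% of all miRNAs in the with-selection table and 0% in the other.

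The number of positive members depended on single libraries and on the scaling. Without Control 9 it fell from 17 to 11 in the with-selection table, and the median in the without-selection table from +0.25 to +0.11. Leaving out MSUS 2 gave +0.16 for that second median. For the with-selection table, leaving out Control 7 gave a median of +0.07, Control 3 one of +0.18 and Control 11 one of +0.19. Scaling by TMM over all features of a table in place of miRNAs moved the median of all miRNAs to +0.52 and +0.29, with superfamily medians of +0.57 and +0.51 and 19 of 19 members positive in both tables. Under that scaling miR-881-3p passed in the without-selection table (log2 +0.87, edgeR adjusted p = 0.0463), the only call among 233 miRNAs. At an unadjusted edgeR p under 0.05 there were 29 of the 233 miRNAs there, against 13 under scaling by miRNAs.

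**Figure D2:**
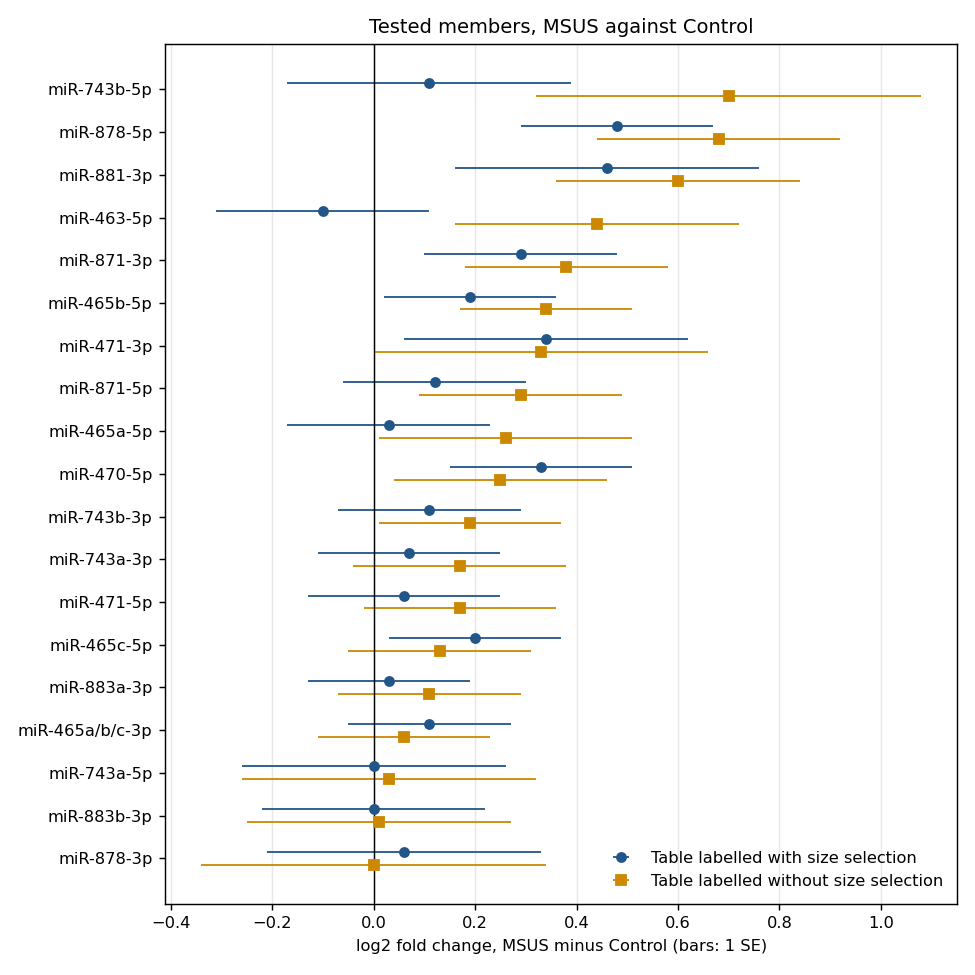
Log2 fold change of MSUS over Control for the 19 tested members, with 1 SE, in the with-selection (circles) and without-selection table (squares), ordered by the second. Most points lie right of 0, from −0.10 to +0.48 and from 0.00 to +0.70, and no member passed the test.

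miR-878-5p had the smallest unadjusted p of the members in both tables. In library order (Control 3, 5, 7, 9 and 11, then MSUS 2, 4, 6, 8 and 14, as in all lists below) it stood at 184, 171, 179, 112 and 139 CPM and at 230, 264, 200, 232 and 168 CPM in the with-selection table. The without-selection table gave 206, 105, 190, 87.2 and 177 CPM and 245, 303, 240, 268 and 174 CPM. All MSUS libraries but MSUS 14 were above every Control library in both tables, and the groups overlapped through MSUS 14. The log2 fold change was +0.48 (SE 0.19, edgeR adjusted p = 0.980) and +0.68 (SE 0.24, edgeR adjusted p = 0.498). Its 3p partner, miR-878-3p, differed by +0.06 (SE 0.27) and 0.00 (SE 0.34).

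miR-881-3p varied most between animals among the abundant members. Its levels were 2695, 3230, 4321, 1550 and 1863 CPM in Control and 3555, 4953, 3871, 4322 and 2127 CPM in MSUS libraries of the with-selection table. They were 2011, 2158, 2985, 1195 and 1494 CPM and 3050, 3926, 2830, 3338 and 1685 CPM in the other. Control 9, Control 11 and MSUS 14 were the 3 lowest in both tables, and Control 3, Control 5 and Control 7 lay within the MSUS range in both. The log2 fold change was +0.46 (SE 0.30, edgeR adjusted p = 0.980) and +0.60 (SE 0.24, adjusted p = 0.771), and 4 of 5 MSUS libraries exceeded the mean of Control in both.

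miR-470-5p, the only abundant product of its hairpin, stood at 253, 320, 252, 294 and 339 CPM in Control and 389, 521, 335, 300 and 306 CPM in MSUS libraries of the with-selection table. In the other table it stood at 242, 321, 274, 301 and 395 CPM and at 582, 402, 271, 325 and 304 CPM. MSUS 4 was highest in one table and MSUS 2 in the other, and the groups overlapped. MSUS over Control gave a log2 fold change of +0.33 (SE 0.18) and +0.25 (SE 0.21), with edgeR adjusted p-values of 0.980 and 0.863. It was +0.18 without MSUS 4 in the first and +0.10 without MSUS 2 in the second of these tables.

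The miR-465 products of the tandem hairpins were not called in either table. miR-465c-5p stood at 1380, 1193, 1182, 809 and 1476 CPM and at 1423, 1508, 1182, 1683 and 1153 CPM in the with-selection table. Its values in the other table were 1134, 1063, 1145, 687 and 1328 CPM and 1188, 1298, 1137, 1166 and 1060 CPM. Control 9 was lowest in both tables and the other Control libraries lay within or close to the MSUS range. Its log2 fold change was +0.20 (SE 0.17) and +0.13 (SE 0.18). In the with-selection table this became +0.10 without Control 9 and +0.11 without MSUS 8, and in the other −0.00 without Control 9, +0.08 without MSUS 4 and +0.22 without Control 11.

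miR-465b-5p, which shares its seed, stood at 1143, 1061, 934, 662 and 1001 CPM and at 1047, 1255, 951, 1337 and 876 CPM. In the without-selection table it stood at 789, 719, 653, 531 and 784 CPM and at 958, 929, 924, 873 and 735 CPM, where every MSUS library but MSUS 14 was above all Control libraries. The log2 fold change was +0.19 (SE 0.17, edgeR adjusted p = 0.980) and +0.34 (SE 0.17, edgeR adjusted p = 0.828), and the first of these became +0.09 without Control 9 or without MSUS 8. The opposite arm, miR-465a/b/c-3p, stood at 831, 840, 806, 759 and 1130 CPM and at 1112, 896, 956, 831 and 917 CPM in the with-selection table. In the other it stood at 777, 797, 794, 719 and 1079 CPM and at 1073, 734, 909, 777 and 863 CPM. Control 11 and MSUS 2 were the highest libraries in both tables. On the log2 scale its difference was +0.11 (SE 0.16) and +0.06 (SE 0.17), with 0.03 to 0.21 and 0.00 to 0.17 when single libraries were left out.

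miR-883a-3p and miR-743a-3p, from the other end of the cluster, were closest to no difference among the abundant members of the with-selection table. miR-883a-3p stood at 1021, 817, 879, 801 and 1091 CPM and at 1061, 722, 1008, 849 and 1066 CPM there. The without-selection table gave 1273, 1003, 899, 923 and 1235 CPM and 1142, 1082, 1456, 892 and 1184 CPM. The groups overlapped over most of their range. Its log2 fold change was +0.03 (−0.28 to +0.35 at 1.96 SE on each side) and +0.11 (−0.23 to +0.45). With single libraries left out it ran from −0.03 to +0.11 and from +0.01 to +0.19.

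miR-743a-3p stood at 693, 471, 511, 346 and 611 CPM and at 526, 501, 491, 653 and 597 CPM in the with-selection table. In the other table it stood at 813, 380, 562, 328 and 653 CPM and at 728, 535, 581, 694 and 559 CPM. Control 9 was again lowest, and Control 3 highest, in both tables. The log2 difference was +0.07 (SE 0.18) and +0.17 (SE 0.21), and with single libraries left out it ran from −0.03 to +0.18 and from +0.02 to +0.35.

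**Figure D3:**
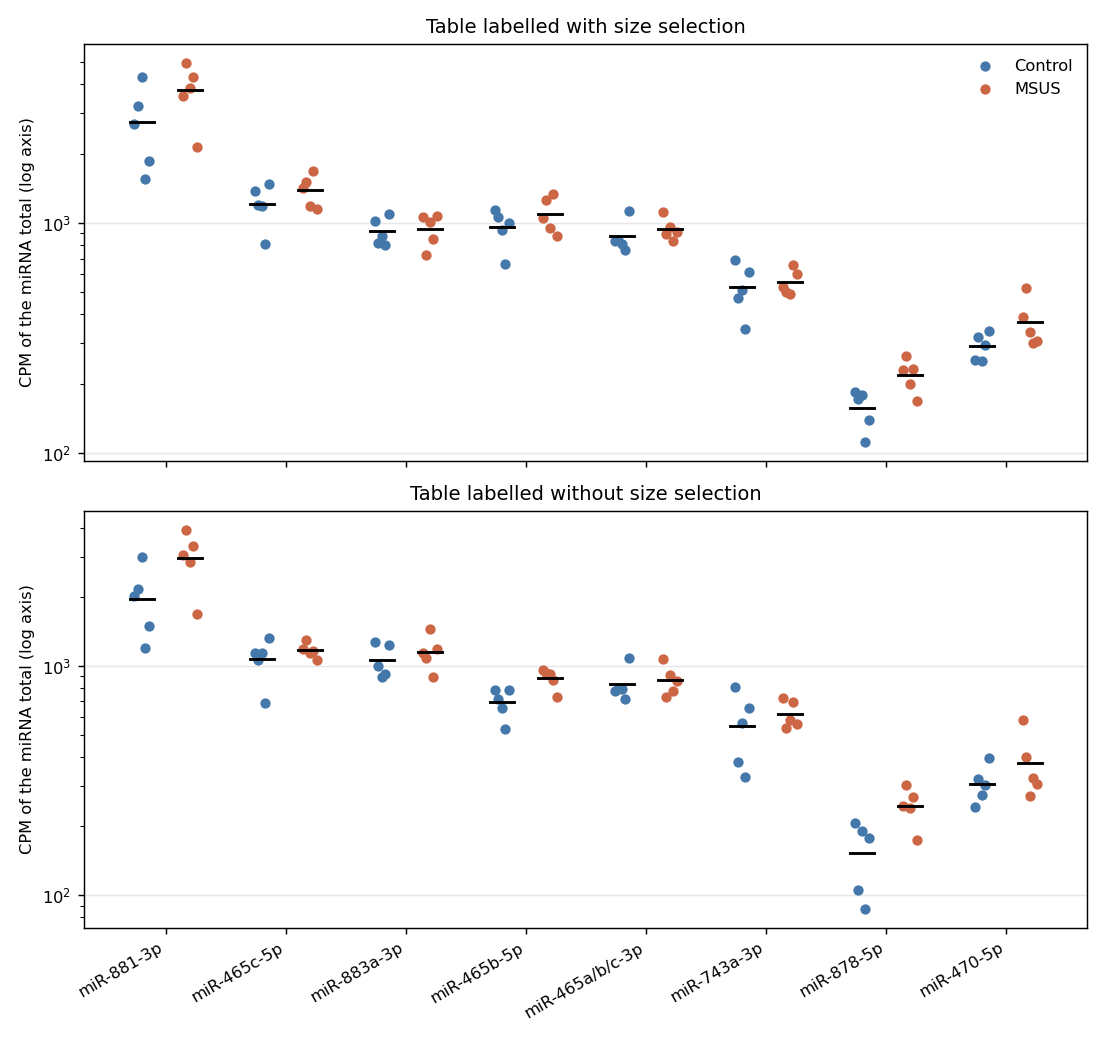
CPM of the miRNA total (log axis) in each library for the 8 members described library by library, Control in blue and MSUS in orange, with black bars at group means. miR-881-3p spans 1550 to 4953 CPM in the with-selection table, and for every member the groups overlap.

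The other tested members gave log2 fold changes from −0.10 to +0.34 in the with-selection and from +0.01 to +0.70 in the without-selection table, apart from miR-878-3p above. miR-743b-5p, at 54.1 and 45.9 CPM among the least abundant tested, differed by +0.11 (SE 0.28) and +0.70 (SE 0.38). miR-463-5p was −0.10 (SE 0.21) in one table and +0.44 (SE 0.28) in the other. miR-871-3p (+0.29 and +0.38), miR-471-3p (+0.34 and +0.33) and miR-871-5p (+0.12 and +0.29) were positive in both. miR-743b-3p differed by +0.11 and +0.19, miR-471-5p by +0.06 and +0.17 and miR-465a-5p by +0.03 and +0.26. miR-883b-3p and miR-743a-5p lay at 0.01 and 0.03 in the without-selection table and within 0.01 of no difference in the other. By arm, 9 of 10 members from 5p arms and 8 of 9 from 3p arms were positive in the with-selection table, both with a median of +0.11. In the without-selection table all 10 and all 9 were positive, with medians of +0.27 and +0.17; the difference between arms was not tested.

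The share of superfamily counts taken by miR-881-3p was lower in the without-selection table in 10 of 10 animals, while the order of the animals was nearly kept. In the with-selection table it was 25.6, 32.1, 39.2, 22.1 and 18.5% in Control and 30.4, 38.1, 34.7, 34.7 and 22.8% in MSUS libraries. The other table gave 21.4, 25.9, 32.6, 18.9 and 15.7% and 26.6, 34.5, 26.8, 31.6 and 19.4%. Control 11, Control 9 and MSUS 14 ranked 10, 9 and 8 of 10 in both tables, and Control 7 and MSUS 4 took the first 2 ranks in both. Group means were 27.5 ± 8.24% in Control and 32.1 ± 5.89% in MSUS, and 22.9 ± 6.58% and 27.8 ± 5.75%, with overlap in both tables.

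The same 3 libraries, Control 9, Control 11 and MSUS 14, had the lowest tRNA share of all counts in the with-selection table, 14.5 to 25.3% against 34.6 to 66.0% in the other 7. Their miR-881-3p share there was 18.5 to 22.8%, against 25.6 to 39.2%. In the without-selection table their tRNA shares (8.65 to 12.6%) lay within those of the other 7 (6.20 to 25.3%), while their miR-881-3p share was 15.7 to 19.4% against 21.4 to 34.5%. The part of library composition in these values was not tested. Without the 3 libraries 12 of 19 members were positive in the with-selection table (median +0.18) and 19 of 19 in the other (median +0.27), with 0 members called by edgeR in both. The log2 fold change of miR-881-3p was then +0.28 and +0.49, from +0.46 and +0.60, that of miR-878-5p +0.37 and +0.69, and that of miR-470-5p +0.48 and +0.50.

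**Figure D4:**
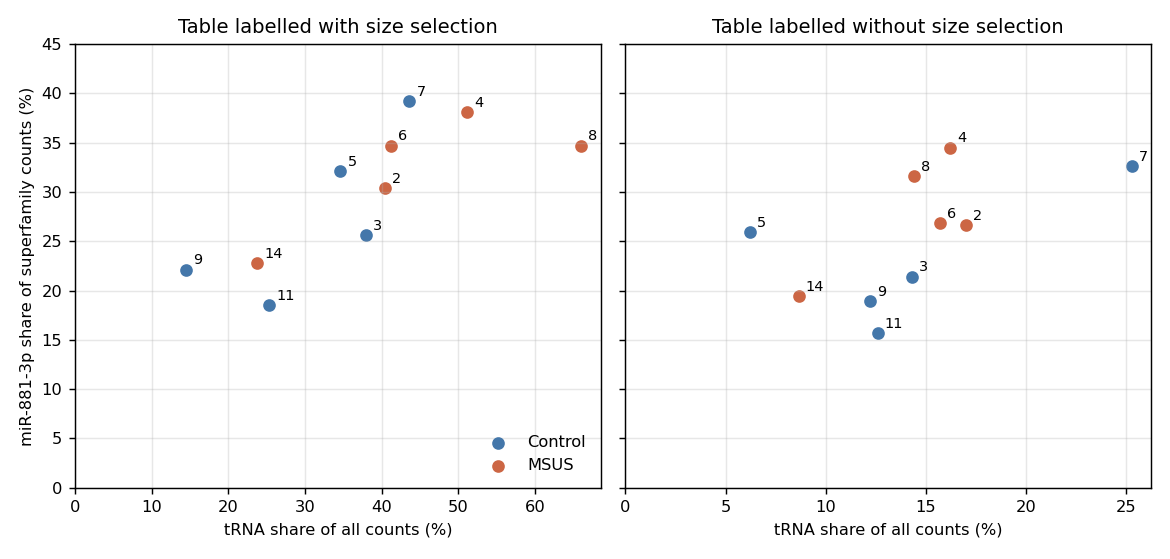
Share of superfamily counts taken by miR-881-3p (%) against the tRNA share of all counts (%) in each library, labelled by animal number, for the with-selection (left) and without-selection table (right). Control 9, Control 11 and MSUS 14 have the 3 lowest miR-881-3p shares in both panels (18.5 to 22.8% and 15.7 to 19.4%); their tRNA shares are the lowest only in the left panel.

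Between the tables, which read the same libraries, members moved in both directions. Without the animal in the model 2 members differed by the edgeR test: miR-465b-5p, higher in the with-selection table by +0.35 (SE 0.11, adjusted p = 0.0262), and miR-883a-3p, lower by −0.29 (SE 0.11, adjusted p = 0.0488). The background over 256 miRNAs was 14.1% higher and 7.42% lower. With the animal as a replicate block, 11 members differed, 7 higher and 4 lower, against a background of 28.1% higher and 29.3% lower. Since the 2 values of an animal come from 1 library, the paired test measures the runs and not new animals. The 2 calls without the block became 0 without Control 5 or without MSUS 8, and 1 without Control 3, Control 9, MSUS 4, MSUS 6 or MSUS 14. That fit takes the 2 values of an animal as independent. The fit with the block was not repeated with animals left out.

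Tested members of 3 of the 4 shared seeds went the same way between the tables in the paired fit. Of the tested members with a shared seed, only miR-465a, b and c on the 5p arm had counts that were not whole. Whether copies shared reads was not tested. miR-465a-5p (+0.31, SE 0.09), miR-465b-5p (+0.33, SE 0.05) and miR-465c-5p (+0.16, SE 0.05) were higher in the with-selection table in 10 of 10 animals each, and miR-743a-5p (+0.43, SE 0.14) and miR-871-5p (+0.26, SE 0.09) in 9 of 10. miR-883a-3p (−0.29, SE 0.05) was lower in 10 of 10 and miR-883b-3p (−0.31, SE 0.11) in 9 of 10 animals. miR-881-3p was higher in 10 of 10 animals (+0.35, SE 0.04, edgeR adjusted p = 6.49e-16). The arms of miR-871 went in opposite directions, with miR-871-3p at −0.23 (SE 0.09). miR-463-5p (+0.34, SE 0.12) and miR-471-5p (−0.23, SE 0.08) were the other calls. The members with the shared seed of miR-743a-3p and miR-743b-3p were not called (−0.12, SE 0.06, and +0.01, SE 0.06).

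A difference of the MSUS effect between the tables was tested as an interaction with the animal as a block, where 0 of 19 members and 0 of 256 miRNAs (0%) passed the edgeR test. At an unadjusted p under 0.05 there were 1 member and 14 miRNAs, and DESeq2 called 0 members. The member was miR-463-5p (with-selection minus without-selection −0.53, SE 0.24, edgeR adjusted p = 0.832), whose effect was −0.10 and +0.44 in the tables. The interaction was above 0 for 4 of 19 members, with a median of −0.08 beside −0.01 for all 256 miRNAs.

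**Figure D5:**
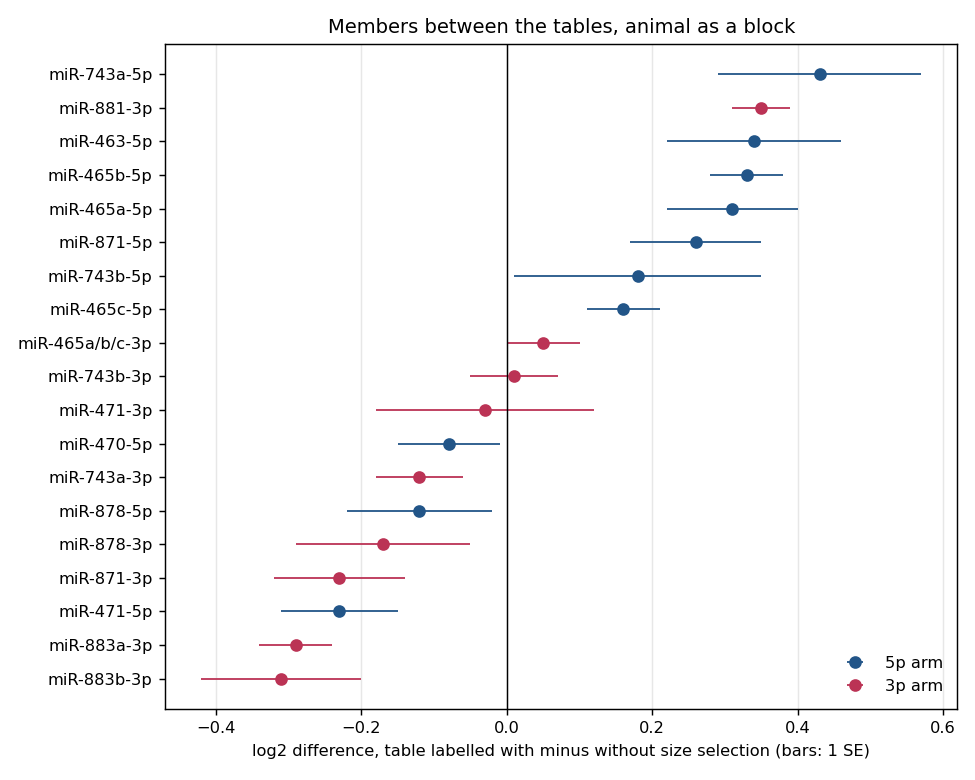
Log2 difference between the with-selection and the without-selection table, with 1 SE, for the 19 tested members, with the animal as a block; blue marks 5p and red 3p arms. miR-881-3p (+0.35) and the miR-465a, b and c 5p members lie right of 0, and miR-883a-3p and miR-883b-3p (−0.29 and −0.31) left of it.

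Other miRNA groups give the setting for these values. miR-34 and miR-449, a family marked by expression in male germ cells and ciliated epithelium, had 5 of 5 tested members positive in both tables with medians of +0.24 and +0.15 and 0 called. miR-34c-5p, its most abundant member here, averaged 5722 ± 1264 and 8156 ± 2213 CPM in the with-selection table (log2 +0.51, SE 0.18, edgeR adjusted p = 0.980). miRNAs whose hairpins all lie on chromosome X but outside the superfamily were positive in 8 of 17 and 5 of 15 cases (medians of −0.00 and −0.07), with the smallest p for miR-1198-5p (−0.43, SE 0.24) and miR-223-3p (−0.62, SE 0.21), and 0 called. Under scaling by all features they became positive in 16 of 17 and 11 of 15 cases, with medians of +0.50 and +0.23 beside +0.52 and +0.29 for all miRNAs.

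Markers of other cells were examined in the same libraries. Blood cell miRNAs were positive in 1 of 7 and 1 of 6 cases (medians −0.24 and −0.37), with miR-155-5p (−0.51, SE 0.17) and miR-223-3p (−0.62, SE 0.21) of smallest p. The miR-223-3p value is the one given above, since that miRNA is in both lists. Under scaling by all features, 6 of 7 and 2 of 6 blood cell miRNAs were positive. Their summed level was 1744 to 3829 CPM of the miRNA total in Control and 2049 to 2617 in MSUS libraries of the with-selection table, and 1609 to 3847 and 1895 to 2926 in the other. Epithelial miRNAs were positive in 4 of 8 and 3 of 8 cases, and muscle and stroma miRNAs in 3 of 7 and 4 of 7, while under scaling by all features they were positive in 8 of 8 and 8 of 8 and in 7 of 7 and 5 of 7. Of smallest p were miR-200b-3p and miR-200c-3p in one table each (−0.22 both) and miR-143-3p in both (+0.24 and +0.28), and 0 were called. Their part in the superfamily values was not tested.

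Fragments of mRNAs were tested over all features, where 0 of 10998 and 0 of 1075 passed (0%). Transcripts of sperm and spermatids had a count in at least one library for 15 of 15 listed genes in both tables, and their sum was 303 to 560 CPM of all counts in Control and 248 to 563 in MSUS libraries of the with-selection table, and 240 to 344 and 243 to 373 in the other. Their log2 fold changes were positive in 12 of 12 tested with a median of +0.46 in the with-selection table and in 4 of 4 with +0.23 in the other. The medians of all features tested were −0.00 and +0.01. Smcp (+0.59, SE 0.14, edgeR adjusted p = 0.837), which encodes a protein of the sperm mitochondrial capsule, and Odf1 (+0.62, SE 0.30), of the sperm tail, had the smallest p in one table each. With scaling by library size alone the count became 0 of 12 with a median of −0.16, beside −0.57 for all features, and 2 of 4 with −0.03, beside −0.26. The part of sperm RNA in the superfamily levels was not tested. Epididymal epithelium transcripts, which check the labelled source, had counts for 15 and 12 of 16 listed genes. Their sum was 1888 to 4374 CPM of all counts in Control and 704 to 2896 in MSUS libraries, and 1072 to 1637 and 635 to 1260 in the other table. Of those tested, 3 of 4 and 0 of 1 were positive (Gpx5 +0.45, SE 0.27, and Crisp1 −0.14, SE 0.20). Crisp1 averaged 7626 counts in Control libraries of the with-selection table, against 252 for Defb2, 154 for Rnase12 and 18.8 for Gpx5. The sum thus rests mostly on Crisp1, which differed by −0.04 (SE 0.21) in that table.

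Muscle and stroma transcripts were positive in 10 of 11 and 1 of 2 cases (Myh11, of smooth muscle, +0.68, SE 0.30, and +0.31, SE 0.34). Their medians were +0.37 and +0.13, beside −0.00 and +0.01 for all features. Blood cell transcripts were positive in 3 of 3 and 0 of 1 (Lyz2 +0.39, SE 0.22, and Cd74 −0.26, SE 0.23), and 0 of either list were called. By library size alone these counts became 5 of 11 and 1 of 2, and 0 of 3 and 0 of 1, and for the epididymal list 0 of 4 and 0 of 1. The medians of all features were then −0.57 and −0.26. The summed level of muscle and stroma transcripts was 374 to 1189 CPM of all counts in Control and 178 to 1214 in MSUS libraries of the with-selection table, and 211 to 480 and 154 to 351 in the other. Blood cell transcripts summed to 110 to 261 and 45.9 to 187, and to 63.1 to 127 and 29.6 to 79.0. Their part in the superfamily values was not tested either. No listed marker transcript with an entry was at 0 in all libraries of a table.

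Transcripts of the genes that make and use miRNAs were also counted. Of 14 listed, 11 were tested in the with-selection table and 2 in the other, with 6 and 1 positive and 0 called. By library size alone 1 of 11 and 0 of 2 were positive. Their medians were then −0.49 and −0.35, beside −0.57 and −0.26 for all features. Xpo5, which exports precursor hairpins from the nucleus, had the most counts at 2502.0 over the with-selection table and differed by +0.06 (SE 0.14). Ran, its partner in export, differed by +0.25 (SE 0.09, edgeR adjusted p = 0.837), Dicer1 by −0.14 (SE 0.14) and Drosha by −0.22 (SE 0.15). Ago2, an Argonaute protein, differed by +0.17 (SE 0.17) and −0.22 (SE 0.30). Of the 6 neighbours of the clusters on chromosome X, 3 were tested in the with-selection table and 0 in the other: Fmr1 (−0.14, SE 0.16), Aff2 (+0.08, SE 0.28) and Ids (+0.02, SE 0.29), with 0 called. Slitrk2, the nearest to the larger cluster among these listed neighbours, had 2.0 counts over all libraries of the with-selection table.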

How the data were processed

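The authors deposited estimated counts, one row per annotated RNA, and many values are not whole. STAR, edgeR and the build GRCm38 are named in the submitters' processing notes. For the assignment of reads to copies, the method is named by no label or header. Groups, animal numbers and runs came from the sample titles. Estimated counts were rounded to whole numbers, which removed 0.0504 to 0.0992% of counts per library where the label says size-selected and 0.266 to 0.689% per library otherwise. edgeR 4.0.16 in R 4.3.3 was run with the sum over mature miRNAs as library size, filterByExpr, TMM, the quasi-likelihood test (robust) with p adjusted over all miRNAs tested by Benjamini-Hochberg at a threshold of 0.05. Each table was fitted alone. Tables were compared over all 20 samples with condition as a covariate. Standard errors came from the quasi-likelihood F statistic. Arm ratios used a pseudocount of 0.5 and at least 10 mean counts on each arm. DESeq2 1.42.0 and limma 3.58.1 (voom) were alternatives. On simulated miRNA counts with 40 of 259 and 40 of 233 miRNAs changed 4-fold, the fit recovered 39 in each table with 2 false calls. Recovery of smaller changes, such as those of the members, was not tested.

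Per the labels, equal numbers mean 1 animal. Over 256 miRNAs, an animal's deviations from its group mean in one run had a correlation of 0.445 to 0.722 with those in the other run. Between different animals it reached 0.389 at most, and 10 of 10 animals were most like themselves.

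The members, lists and tests were chosen with earlier results of these data known. Values are given library by library for the 6 members of highest mean CPM over all samples and for those with the 3 smallest unadjusted p in each table. Of each other list the member of smallest p is named, and up to 4 transcripts. Low totals on miRNAs limit the precision of members below about 100 CPM. An abundant member can be imprecise too: the largest SE in the with-selection table, 0.30, was that of miR-881-3p at 3249 CPM. Sequences and hairpins are RefSeq on GRCm38.p6.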

Additional observations from a re-analysis of the deposited data

Results flagged for a closer look

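Each tested member's CPM and the superfamily shares were examined in groups of 5 libraries for a single library far from the other 4, 80 groups in all. Chance flags about 1 in 20 such groups, and 3 were found. miR-465a/b/c-3p was at 1130 CPM in Control 11 of the table labelled with size selection, where the other Control libraries were at 759 to 840, and at 1079 CPM in Control 11 of the other table, where they were at 719 to 797. Both values come from 1 library. miR-871-3p was at 178 CPM in MSUS 6 of the table labelled with size selection, below 236 to 257 CPM in the other MSUS libraries.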

How the results depend on the processing

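No member was called for MSUS against Control under any alternative or with any library left out, with 1 exception. That was miR-881-3p in the table labelled without size selection with TMM over all features, the only call among 233 miRNAs. The smallest adjusted p ran from 0.302 to 0.999 and from 0.0463 to 0.996. The interaction (also with no replicate block, smallest adjusted p 0.998) gave 0 calls under all alternatives run. So did the arm ratios, where the smallest p the test allows kept any single hairpin from a call among 52 and 46 hairpins. Between tables the call count was 11 with the replicate block. Without the block it was 1 with no filter on low counts, and 0 to 2 with each animal left out. As a share of all counts the superfamily took 0.139 ± 0.0393% in Control and 0.144 ± 0.0184% in MSUS (SD, n = 5 each) of the table labelled with size selection. In the other table it took 0.542 ± 0.127% and 0.682 ± 0.0440%. This share also depends on the counts of all other RNAs. The cause of the changes was not tested.

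Log2 fold changes that turned sign in the table labelled with size selection were, with TMM over all features, miR-463-5p (+0.30) and miR-883b-3p (+0.47); with voom, miR-883b-3p (+0.01), miR-878-3p (−0.01) and miR-743a-5p (−0.06); for miR-743a-5p −0.01 with DESeq2, its size factors or no filter and −0.00 with library size only; and, without the 3 libraries of lowest tRNA share (chosen after seeing the data), miR-883a-3p (−0.00), miR-743a-3p (−0.05), miR-465a-5p (−0.02), miR-471-5p (−0.03), miR-883b-3p (+0.24), miR-743b-5p (−0.05) and miR-743a-5p (−0.14). In the other table they were, with library size only, miR-883b-3p (−0.04), miR-878-3p (−0.05) and miR-743a-5p (−0.01), with voom miR-883b-3p (−0.04), and with no filter miR-878-3p (−0.01).

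With 1 library left out, the ranges that crossed 0 in the table labelled with size selection were miR-465a-5p −0.10 to 0.13, miR-471-5p −0.05 to 0.18, miR-743a-3p −0.03 to 0.18, miR-743a-5p −0.10 to 0.18, miR-743b-3p −0.01 to 0.19, miR-743b-5p −0.04 to 0.20, miR-878-3p −0.11 to 0.23, miR-883a-3p −0.03 to 0.11 and miR-883b-3p −0.11 to 0.16. In the other table they were miR-465c-5p −0.00 to 0.22, miR-743a-5p −0.10 to 0.19, miR-878-3p −0.13 to 0.17 and miR-883b-3p −0.18 to 0.12. Signs turned in 29 of 190 and 13 of 190 such values. Members near 100 CPM or below had SE of up to 0.38. In the table labelled without size selection, miR-743b-5p at +0.70 (SE 0.38) and miR-878-5p at +0.68 (SE 0.24) were not called. With these SE, differences of that size were not enough for a call. Whether they can be detected in members of smaller SE was not tested.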
